A study of Mus musculus with 8 samples.

Results

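Genes for digestive enzymes of the pancreatic acinar type were read in the corpus of the mouse stomach, the acid- and pepsinogen-secreting region. They were taken by gene name from the count table: 10 of its 54532 genes, comprising 4 lipase genes (Cel, Pnlip, Pnliprp1 and Pnliprp2), the lipase cofactor gene Clps, the carboxypeptidase genes Cpa1 and Cpb1, and the serine protease genes Cela1, Ctrb1 and Try10. Polyadenylated RNA came from 4 mutant animals of genotype Six2-Cre+/- PKAcaR fl/wt and 4 control animals of genotype Six2-Cre+/- PKAcaR wt/wt. Both groups thus carried the Six2-Cre transgene, had a mixed C57BL/6 and CD1 background, and were left untreated. The animals were separate biological replicates. PKAcaR is known as a conditional allele of Prkaca, which codes for a catalytic subunit of protein kinase A, and it encodes a constitutively active enzyme where Cre has recombined it, so in the mutants it depends on where the Six2 promoter has driven Cre. Age and sex are not given in the labels used here. The comparison asked how the mutant corpus differed from the control corpus in these transcripts.

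Pancreatic acinar cells are known to store lipases and protease precursors in zymogen granules and to release them into the duodenum. Pancreatic lipase (Pnlip) cleaves dietary triglycerides and needs colipase (Clps) to hold it on fat droplets coated with bile salts, carboxyl ester lipase (Cel) cleaves cholesteryl and vitamin esters, and the proteases are secreted as inactive forms that trypsin activates. Chief cells, the zymogen-secreting cells of the corpus gland, share much of that secretory machinery, and procolipase has been described in the gastric mucosa of rats. The transcription factor complex PTF1, built on PTF1A and RBPJL, drives acinar enzyme genes through an E-box paired with a TC-box.

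Promoters are shown for the 4 lipase genes, which fell together in the counts below, and for Cela1, which rose, so that the PTF1 letters in each can be compared. Each is the RefSeq sequence on GRCm38.p6 from 250 bases before to 50 bases after the transcription start, printed in the direction of the gene, with matches to CACCTG and TTTCCC on either strand in capitals.
Cel, chr2:28563354-28563653, minus strand: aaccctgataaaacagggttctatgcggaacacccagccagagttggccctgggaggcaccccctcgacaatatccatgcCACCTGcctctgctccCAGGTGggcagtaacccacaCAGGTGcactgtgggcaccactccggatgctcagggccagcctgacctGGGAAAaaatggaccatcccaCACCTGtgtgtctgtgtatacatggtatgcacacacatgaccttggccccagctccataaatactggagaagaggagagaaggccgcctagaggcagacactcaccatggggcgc
Pnlip, chr19:58670115-58670414, plus strand: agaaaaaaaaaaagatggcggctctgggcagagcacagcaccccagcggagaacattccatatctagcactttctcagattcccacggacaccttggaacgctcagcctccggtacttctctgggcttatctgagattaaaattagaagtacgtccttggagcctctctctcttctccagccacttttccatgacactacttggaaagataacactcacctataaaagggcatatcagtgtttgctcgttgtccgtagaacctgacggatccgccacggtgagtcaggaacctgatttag
Pnliprp1, chr19:58728637-58728936, plus strand: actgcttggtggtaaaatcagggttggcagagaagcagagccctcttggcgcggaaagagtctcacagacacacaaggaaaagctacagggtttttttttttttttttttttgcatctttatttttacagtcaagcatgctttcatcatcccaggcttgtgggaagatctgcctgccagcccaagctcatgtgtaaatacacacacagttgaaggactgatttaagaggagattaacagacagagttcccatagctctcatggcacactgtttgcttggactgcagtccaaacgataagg
Pnliprp2, chr19:58759473-58759772, plus strand: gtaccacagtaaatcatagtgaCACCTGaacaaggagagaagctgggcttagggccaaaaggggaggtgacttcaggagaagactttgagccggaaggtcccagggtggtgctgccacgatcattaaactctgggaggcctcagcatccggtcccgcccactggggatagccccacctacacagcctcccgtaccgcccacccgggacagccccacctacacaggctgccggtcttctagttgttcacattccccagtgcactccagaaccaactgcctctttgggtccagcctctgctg
Cela1, chr15:100687871-100688170, minus strand: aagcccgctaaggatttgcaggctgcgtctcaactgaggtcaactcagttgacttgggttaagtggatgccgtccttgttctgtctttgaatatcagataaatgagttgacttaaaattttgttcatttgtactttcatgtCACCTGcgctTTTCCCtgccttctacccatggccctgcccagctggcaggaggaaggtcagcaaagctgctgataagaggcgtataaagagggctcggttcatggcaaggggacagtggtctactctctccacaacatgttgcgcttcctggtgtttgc
RefSeq promoters matched 8 of the 10 genes, all but Clps and Try10. Among all 32851 promoters of this length, 20.2% held CACCTG, 25.2% held TTTCCC and 4.86% held both. Cel held 4 matches to CACCTG and 1 to TTTCCC, Pnliprp2 held 1 match to CACCTG, and Pnlip and Pnliprp1 held neither. Cela1 held CACCTG at position -109 and TTTCCC at position -99, counted to the left end of the match from the start site. Of the promoters not printed, that of Cpb1 held 1 CACCTG, and those of Cpa1 and Ctrb1 each held 1 TTTCCC. The E-box CATATG, known to be bound by BHLHA15 (MIST1), and the full cyclic AMP response element TGACGTCA were in none of the 8, against 3.91% and 1.79% of all promoters. The letters TGACG, found in 20.8% of all promoters, occurred in Pnlip alone, at position 13. A match is only a description of the letters. Only these exact letters and their reverse complements were searched, so a promoter without a match may still hold another form of a box.

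Mutant libraries held 18184281 to 23814720 reads and control libraries 18942308 to 22814152, and Prkaca itself was at 37.9 ± 1.87 CPM in mutants and 80.2 ± 4.05 CPM in controls (SD, n = 4 each, log2 fold change -1.08, SE 0.085, edgeR adjusted p = 0.000604). CPM are read counts over the TMM-scaled library size. Prkaca had 1103, 996, 859 and 866 reads in mutants and 1370, 1212, 1219 and 1289 in controls, so the size of its fall depended on that scaling. Its adjusted p was at most 0.0208 over all alternatives. Mutant 2 stood apart, with a correlation of log2 CPM across genes of 0.829 to 0.875 with the other mutants, against 0.972 to 0.976 among those 3. Mutant 3 and control 3 held squamous transcripts (163 and 30.9 CPM of the keratin gene Krt5, against at most 0.0429 CPM in the other 6 libraries). Of 15862 genes tested, 20.2% differed between the groups, 10.8% lower and 9.39% higher in mutants (edgeR, adjusted p under 0.05). Column totals as library sizes raised the median over all genes by 0.70 (log2) and the calls split into 722 lower and 9443 higher, against 1719 lower and 1489 higher with TMM.

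Of the 10 genes 8 were tested, and 6 of these fell in mutants, 1 rose and 1 was not called. Of all genes tested 20.2% were called, 10.8% lower and 9.39% higher. The 6 that fell were Try10, Pnlip, Clps, Pnliprp1, Cel and Pnliprp2, and the riser was Cela1. The median log2 fold change of the 8 was -4.35, and that of all genes tested was 0.07. Pnlip reached the count minimum in 4 of 4 controls and in 0 of 4 mutants, and Try10 in 4 controls and 2 mutants. Pnliprp1 and Cpb1 each reached it in 4 controls and 3 mutants. All of these entered the test through the controls, and the counts and median above include them. Cpa1 and Ctrb1 had too few reads to be tested. In 7 of the 8 tested genes every mutant lay below every control, and in Cela1 every mutant lay above, beside 16.1% and 14.2% of all genes tested. With column totals as library sizes, 6 of the 8 were called lower and 1 higher, where 722 of all genes tested were called lower and 9443 higher. In bulk tissue, fewer cells of a type and less RNA per cell cannot be told apart.

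**Figure D1:**
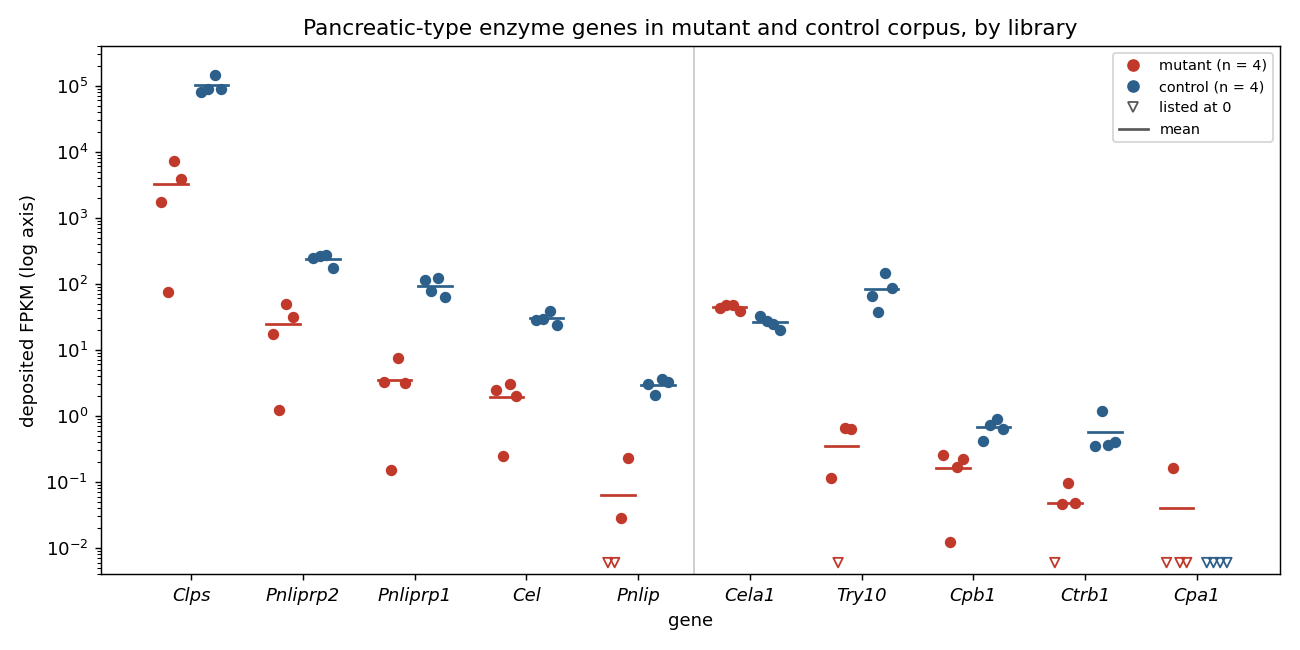
Deposited FPKM (log axis) of each gene in the 4 mutant libraries (red, left) and the 4 control libraries (blue, right), lipase genes left of the vertical line and protease genes right of it; bars are means and open triangles are libraries listed at 0. Clps lies far above the others, Cela1 is the gene whose mutants sit above its controls, and Cpa1 is listed at 0 in all 4 controls.

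Colipase was the most abundant of these transcripts and lost most of its reads in mutants. Clps (ENSMUSG00000024225, chr17:28558149-28560766, minus strand) had 32360, 1139, 101787 and 55888 reads in mutants 1 to 4, and 799648, 840577, 1394486 and 913624 reads in controls 1 to 4. By FPKM it ranked 5, 8, 15 and 402 among all genes in mutants 3, 4, 1 and 2, and 2 in every control. Its share of the library was 0.00610% to 0.544% in mutants and 4.09% to 6.11% in controls. Its level averaged 1978 ± 1873 CPM in mutants and 62316 ± 17944 CPM in controls (SD, n = 4 each), a log2 fold change of -4.98 (SE 1.16, edgeR adjusted p = 0.0208). The groups were apart in all 8 libraries, but the call was lost when mutant 1, mutant 4, control 1 or control 3 was left out (adjusted p of 0.0501 to 0.0604, against 1.69e-07 to 0.0620 over all alternatives). Without mutant 2 the log2 fold change was -4.57 (SE 0.51, adjusted p = 9.59e-05), and without mutant 3 it was -5.73.

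Pancreatic lipase itself was scarce. Pnlip (ENSMUSG00000046008, chr19:58670365-58681786, plus strand) had 0, 0, 1 and 8 reads in mutants 1 to 4, and 73, 47, 84 and 81 reads in controls. Mutants 1 and 2 had no read, where 3 reads would have been at most 0.123 CPM. Pnlip averaged 0.0965 ± 0.165 CPM in mutants and 4.47 ± 0.972 CPM in controls (log2 fold change -5.51, SE 0.96, edgeR adjusted p = 0.00685). It was called with every library left out, but mutant 4 carried most of its mutant reads, and without that library the log2 fold change was -7.86. Mutants had too few Pnlip reads for a ratio, and in controls Clps exceeded Pnlip, the lipase it is known to serve, by 26623 to 43468 times per length (FPKM ratio).

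Both lipase-related genes beside Pnlip on chromosome 19 were higher in level than Pnlip and also fell. Pnliprp1 (ENSMUSG00000042179, chr19:58728887-58744169, plus strand), whose protein is known for little lipase activity of its own, had 159, 6, 283 and 122 reads in mutants, against 2947, 1909, 3139 and 1734 in controls. Its log2 fold change was -4.74 (SE 0.86, edgeR adjusted p = 0.00886). That call held without any 1 library, with -5.41 when mutant 3 was left out. Pnliprp2 (ENSMUSG00000025091, chr19:58759723-58777533, plus strand), which is known to cleave galactolipids and triglycerides, had 817, 48, 1787 and 1145 reads in mutants and 6100, 6331, 6735 and 4593 in controls. It averaged 38.8 ± 31.9 CPM in mutants and 376 ± 70.4 CPM in controls, with the smallest fall among the genes of this set that were called lower (log2 fold change -3.28, SE 0.85, edgeR adjusted p = 0.0308). The Pnliprp2 call was lost without mutant 1, mutant 4 or any 1 control (adjusted p of 0.0573 to 0.0728, against 0.000121 to 0.0837 over all alternatives), and without mutant 2 it was -2.88 (SE 0.36, adjusted p = 0.000690). Per length, Pnliprp2 exceeded Pnliprp1 by 5.31 to 9.70 times in mutants and by 2.14 to 3.43 times in controls, and the groups did not overlap. That ratio was not tested.

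Cel (ENSMUSG00000026818, chr2:28555795-28563403, minus strand) had 157, 13, 151 and 99 reads in mutants and 959, 946, 1289 and 859 in controls. Mutant 2 was again the lowest library, and the other 3 mutants lay within 1.53 times of each other in CPM. Cel averaged 4.13 ± 2.57 CPM in mutants and 64.1 ± 13.0 CPM in controls (log2 fold change -3.95, SE 0.61, edgeR adjusted p = 0.00468). It stayed below the threshold without any 1 library (adjusted p of at most 0.0201). An antisense gene, Gm13381, overlaps Cel and had 31 reads over all libraries, and the strand setting of the counting is not given.

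The proteases divided. Try10 (ENSMUSG00000071521, chr6:41354105-41357914, plus strand), a trypsinogen gene in the cluster within the T cell receptor beta locus, had 3, 0, 13 and 13 reads in mutants, against 909, 496, 1990 and 1270 in controls. It averaged 0.304 ± 0.297 CPM in mutants and 73.2 ± 40.0 CPM in controls, with the largest fall among the 8 tested (log2 fold change -7.93, SE 0.83, edgeR adjusted p = 0.00137). Of 15862 genes tested, 3 had a log2 fold change as low or lower, Try10 included. The call held without any 1 library (log2 fold changes of -8.41 to -7.52). Controls ranged over 3.89 times in CPM, the widest spread in controls among the 10 genes, with control 3 highest and control 2 lowest. Of the 50-base words in Try10 transcripts of GENCODE M21, 40.8% also occur in transcripts of other genes, as do 11.6% of its 100-base words, so reads could have been shared with its relatives. For the other 9 genes that share was 0%.

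Cela1 (ENSMUSG00000023031, chr15:100674421-100687921, minus strand), which encodes the chymotrypsin-like elastase 1, ran the other way. It had 2963, 2704, 2555 and 2100 reads in mutants, against 1185, 978, 893 and 767 reads in controls. In contrast to the lipases, mutant 2 was not low, and the 4 mutants lay within 1.23 times of each other in CPM. Cela1 averaged 102 ± 9.88 CPM in mutants and 60.4 ± 12.0 CPM in controls (log2 fold change 0.76, SE 0.16, edgeR adjusted p = 0.0132). Of 15862 genes tested, 2598 had a log2 fold change as high or higher, Cela1 included. The rise was called without any 1 library (adjusted p of at most 0.0460), and it lost its call when mutant 3 and control 3 were both left out (log2 fold change 0.69, adjusted p = 0.0885, against 0.000280 to 0.0885 over all alternatives). Its promoter held both CACCTG and TTTCCC, as did that of Cel, and the part of these letters in the change of either gene was not tested.

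The remaining proteases had few reads. Cpb1 (ENSMUSG00000011463, chr3:20248264-20275733, minus strand), a carboxypeptidase that removes basic end residues, had 25, 1, 13 and 17 reads in mutants and 22, 37, 46 and 35 in controls. Its CPM groups did not overlap, and it was not called (log2 fold change -2.01, SE 0.65, edgeR adjusted p = 0.0596), although DESeq2 (adjusted p = 0.00915), limma-voom with sample weights (adjusted p = 0.00676) and edgeR without mutant 2 (adjusted p = 0.00628) called it lower. Over all alternatives its adjusted p ran from 0.00628 to 0.200. Ctrb1 (ENSMUSG00000031957, chr8:111686519-111691010, minus strand), chymotrypsinogen B, had 0, 1, 2 and 1 reads in mutants and 5, 16, 5 and 6 in controls. Cpa1 (ENSMUSG00000054446, chr6:30639218-30645363, plus strand), the carboxypeptidase of aromatic and aliphatic end residues, had 0, 7, 0 and 0 reads in mutants and 0 in every control, where 3 reads would have been 0.179 to 0.198 CPM. Both are abundant products of the pancreatic acinar cell.

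**Figure D2:**
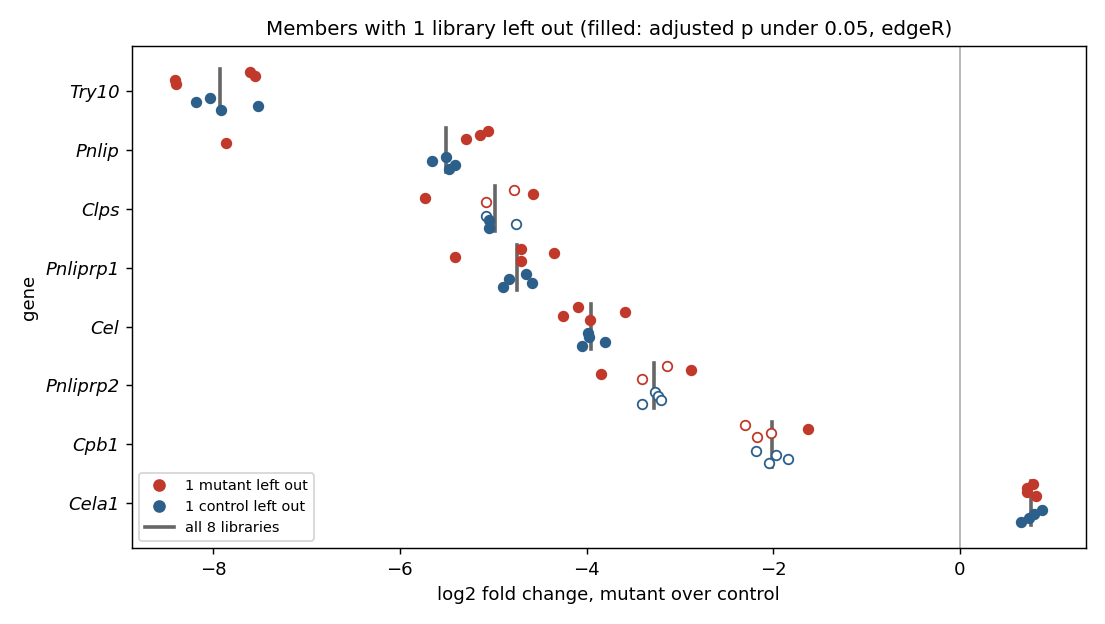
Log2 fold change, mutant over control, of the 8 tested genes with each mutant (red, upper dots) or control (blue, lower dots) left out in turn; grey bars are the values with all 8 libraries, filled dots have an adjusted p under 0.05 in edgeR and open dots do not. Try10, Pnlip, Pnliprp1, Cel and Cela1 are filled throughout, Clps in 4, Pnliprp2 in 2 and Cpb1 in 1 of the 8.

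Levels between genes were compared per length, in deposited FPKM. Those FPKM follow the TMM-scaled library sizes more closely than the column totals, so they are no separate check of the scaling between groups. In mutants the order by mean FPKM was Clps (3217 ± 3052), Cela1 (44.1 ± 4.33), Pnliprp2 (24.6 ± 20.3), Pnliprp1 (3.53 ± 3.02), Cel (1.95 ± 1.22), Try10 (0.352 ± 0.342), Cpb1 (0.164 ± 0.106), Pnlip (0.0644 ± 0.110), Ctrb1 (0.0481 ± 0.0400) and Cpa1 (0.0406 ± 0.0812). In controls the order was Clps (101167 ± 29531), Pnliprp2 (238 ± 44.9), Pnliprp1 (94.2 ± 28.7), Try10 (84.5 ± 46.5), Cel (30.2 ± 6.26), Cela1 (26.0 ± 5.18), Pnlip (2.99 ± 0.658), Cpb1 (0.668 ± 0.198), Ctrb1 (0.577 ± 0.406) and Cpa1, listed at 0. In controls, Pnliprp1 and Try10, Try10 and Cel, Cel and Cela1, and Cpb1 and Ctrb1 overlapped as neighbours in that order, and the other neighbours did not. In mutants Clps lay apart from Cela1, its lowest library being mutant 2 at 75.7 FPKM, and every other neighbouring pair overlapped. Cela1 was next after Clps in mutants, with a level of 38.7 to 47.6 FPKM, against 19.7 to 32.0 FPKM in controls. Together the 10 genes made up 0.0210% to 0.570% of a mutant library and 4.15% to 6.17% of a control library, and Clps made up 29.1% to 95.5% of that in mutants and 98.5% to 99.0% in controls.

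Ratios of reads within a library do not depend on scaling between libraries, and they separated the genes from each other. Per 1000 Pgc reads, Clps had 95.6, 56.9, 118 and 141 reads in mutants 1 to 4, against 188, 215, 196 and 212 in controls. Clps was thus lower relative to Pgc in all 4 mutants, as was Try10, with 0 to 0.0328 reads per 1000 Pgc reads in mutants and 0.127 to 0.294 in controls. Pnliprp2 ran the other way, with 2.41, 2.40, 2.08 and 2.89 in mutants and 1.43, 1.62, 0.945 and 1.06 in controls, so it fell less than Pgc. Cpb1, not called in the test, was also higher relative to Pgc in every mutant (0.0151 to 0.0739 in mutants, 0.00516 to 0.00945 in controls). Cel (0.175 to 0.649 in mutants, 0.181 to 0.242 in controls), Pnliprp1 (0.300 to 0.470 in mutants, 0.402 to 0.691 in controls) and Pnlip (0 to 0.0202 in mutants, 0.0118 to 0.0188 in controls) overlapped. Relative to Bhlha15, a transcription factor gene of chief and acinar cells, all 5 lipase and colipase genes and Try10 were lower in every mutant than in any control. Clps, for example, had 7209 to 96026 reads per 1000 Bhlha15 reads in mutants and 769044 to 915661 in controls. Cela1 was higher relative to both genes in every mutant. Both denominators were themselves lower in mutants, Pgc at a mean of 16557 CPM against 309729 CPM in controls. Bhlha15, not called in the test, was at 25.6 CPM against 76.2 CPM. A gene that rose, or fell less than they did, is therefore higher relative to them. These ratios are given without a test.

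**Figure D3:**
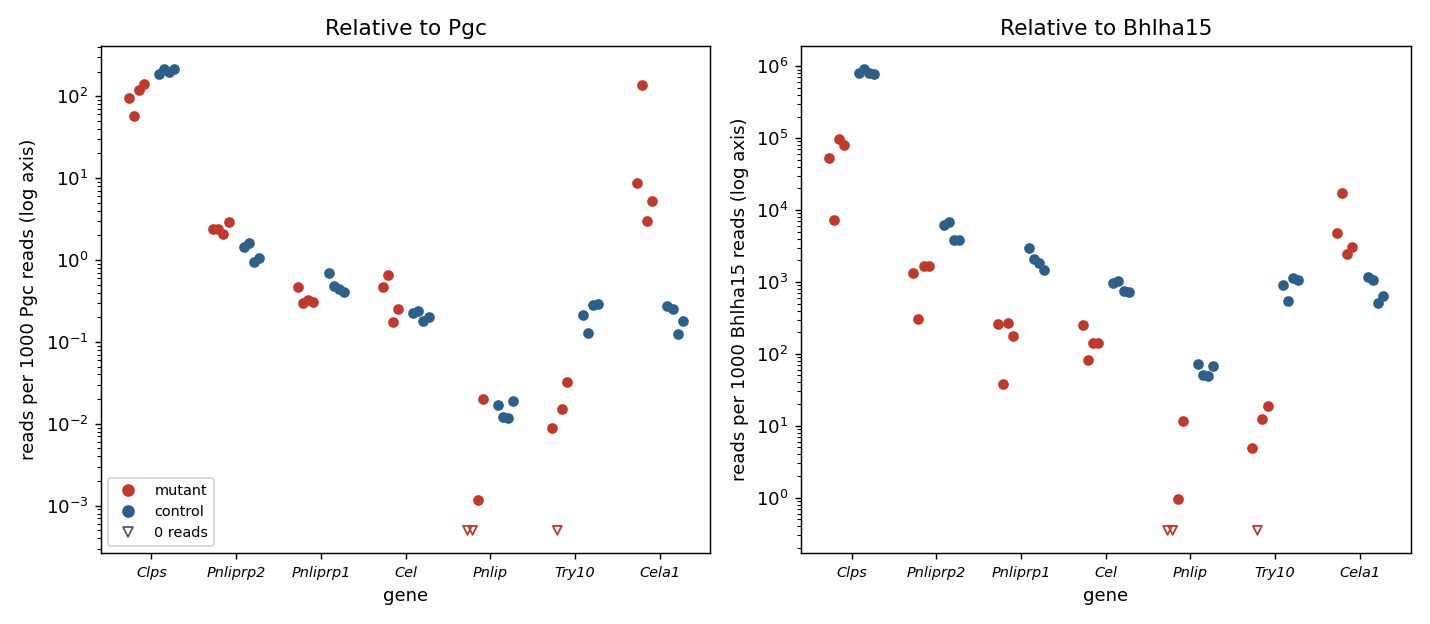
Reads of 7 genes per 1000 reads of Pgc (left panel) and of Bhlha15 (right panel) in the same library, log axes, with mutants in red on the left and controls in blue on the right and open triangles for 0 reads. Relative to Pgc, Pnliprp2 and Cela1 are higher in all 4 mutants while Clps and Try10 are lower; relative to Bhlha15, all but Cela1 are lower in mutants.

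Other acinar enzyme genes mostly fell where they could be tested. Among 25 other acinar enzyme genes, 7 were tested, 5 fell and 2 were not called, with a median log2 fold change of -3.28. Beside them, 10.8% of all genes tested were lower and 9.39% higher in mutants. Try5, with 4, 1, 31 and 6 reads in mutants and 73, 23, 67 and 57 in controls, could enter the test through the controls. Pla2g1b, the secreted phospholipase A2 of the pancreas, was second to Clps in reads among these enzymes, with 26958, 343, 79621 and 44007 reads in mutants and 394717, 378898, 633384 and 444519 in controls (log2 fold change -4.23, SE 1.23, edgeR adjusted p = 0.0443). That call was lost without mutant 1, mutant 4 or any 1 control (adjusted p of at most 0.0998, over a range from 8.55e-05 to 0.102 over all alternatives). The trypsinogen genes Try4 (-5.12, SE 1.04) and Try5 (-2.97, SE 0.89), the ribonuclease gene Rnase1 (-3.61, SE 0.62) and the amylase gene Amy1 (-3.28, SE 0.50) fell as well, on the log2 scale. Try4 and Try5 share 65.6% and 47.6% of their 50-base words with other genes, and the Try5 call was lost without mutant 1, mutant 4 or any 1 control (adjusted p of at most 0.117). 2210010C04Rik, a further trypsinogen-like gene of that list, had 0, 0, 1 and 0 reads in mutants and 8, 13, 129 and 55 in controls and was not tested. Klk1, a tissue kallikrein (1.16, SE 0.81, adjusted p = 0.332), and Dnase1, a deoxyribonuclease (0.24, SE 0.46, adjusted p = 0.735), were not called. Without mutant 2, Klk1 was called higher (edgeR adjusted p = 0.0242). The count of 5 lower was 3 without control 2, control 3 or control 4, and lay between 3 and 7 over the alternatives.

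Of 12 accessory genes of the acinar granule and surface, 6 were tested, 3 fell and 2 rose, and the 3 were 2 without mutant 1, mutant 4 or any 1 control. The shares over all genes tested were 10.8% lower and 9.39% higher. Sycn, syncollin of the zymogen granule membrane, fell to 0.356 ± 0.240 CPM in mutants, against 9.26 ± 0.579 CPM in controls (log2 fold change -4.68, SE 0.71, edgeR adjusted p = 0.00433). Tmed6, a cargo-transport gene, fell by 3.20 on the log2 scale (SE 0.84), a call lost without mutant 1, mutant 4 or any 1 control (adjusted p of at most 0.0781), and Rnase1 is on this list too. Reg1, a secreted lectin, rose to 138 ± 114 CPM in mutants, against 1.24 ± 0.576 CPM in controls (log2 fold change 6.80, SE 0.70, edgeR adjusted p = 0.00136, and 6.05 without mutant 2). Gp2, a granule membrane glycoprotein, had 47, 2772, 118 and 102 reads in mutants and 3, 1, 4 and 0 in controls. It thus entered the test through the mutants. The Gp2 rise of 7.88 (SE 1.86, adjusted p = 0.0214) rested largely on mutant 2, was 4.79 without it (adjusted p = 0.000317), and lost its call without any 1 control (adjusted p of at most 0.0680). Cckar, the cholecystokinin receptor of acinar and chief cells, was not called (-1.81, SE 0.86, adjusted p = 0.164), but was called lower without mutant 2 (edgeR adjusted p = 0.0221).

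Both genes of the PTF1 complex were read in the corpus and fell, 2 of 5 transcription factor genes tested (1 without mutant 4 or any 1 control, 3 without mutant 3 and 4 without mutant 2). Among all genes tested, 10.8% were lower. Ptf1a had 18, 0, 12 and 6 reads in mutants and 48, 39, 51 and 27 in controls (log2 fold change -2.89, SE 0.76, edgeR adjusted p = 0.0307), and the call was lost without mutant 4 or any 1 control (adjusted p of at most 0.0863). With so few mutant reads, Ptf1a could enter the test through the controls. Rbpjl had 95, 20, 105 and 107 reads in mutants and 518, 371, 526 and 318 in controls (log2 fold change -3.06, SE 0.49, adjusted p = 0.00535), and was called without any 1 library. Bhlha15 (-1.57, SE 0.51, adjusted p = 0.0630), Gata4 (-0.72, SE 0.43, adjusted p = 0.263) and Xbp1 (-0.12, SE 0.12, adjusted p = 0.531) were not called, and Xbp1, a secretory stress regulator, was higher with column totals as library sizes (0.59, adjusted p = 0.00573). Nr5a2, an acinar nuclear receptor gene, had 17, 138, 1 and 5 reads in mutants and 7, 9, 4 and 3 in controls and was not tested.

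**Figure D4:**
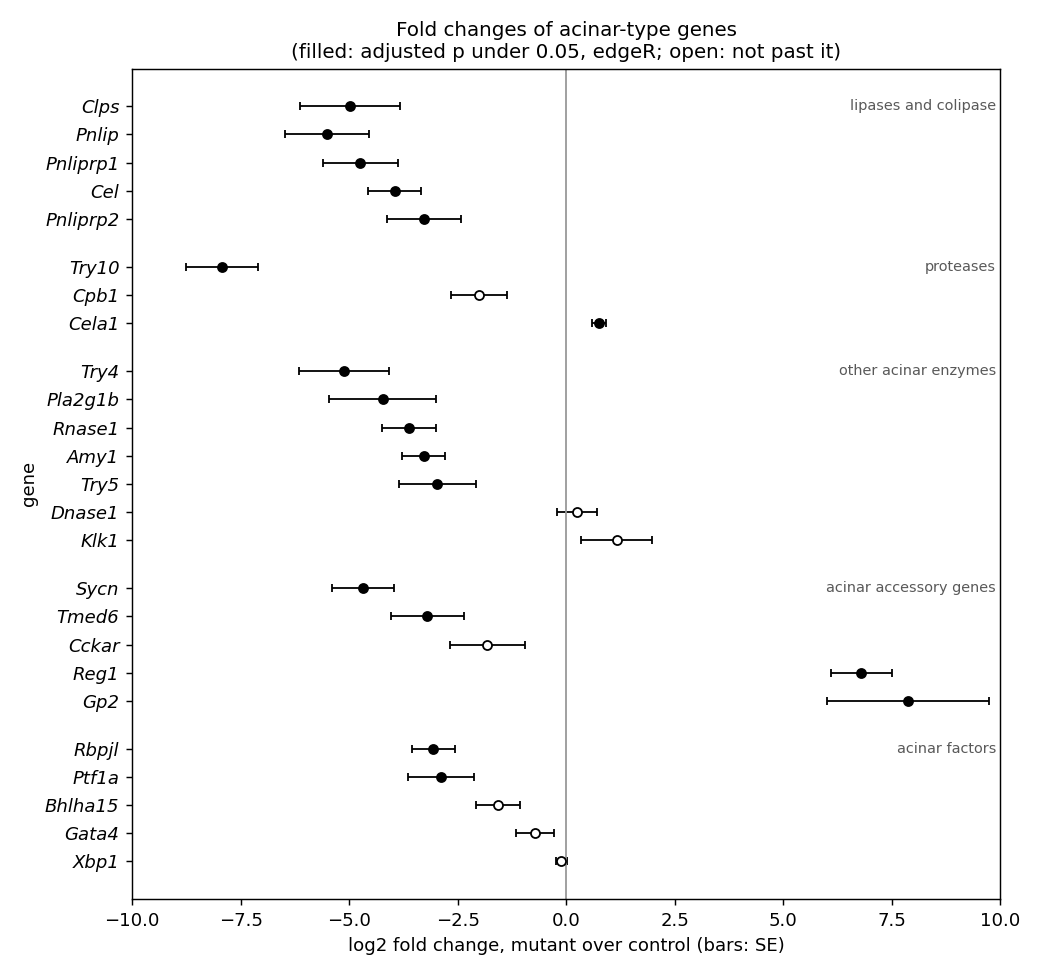
Log2 fold change, mutant over control, with SE, of the tested lipase, protease, other acinar enzyme, accessory and transcription factor genes from all 8 libraries; filled dots have an adjusted p under 0.05 in edgeR. Try10 lies lowest at -7.93, while Cela1, Reg1 and Gp2 are the filled dots right of 0.

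Markers that define other tissues were checked beside these genes. The 25 other acinar enzyme genes ranged widely: those not tested had 0 to 15 reads per library in mutants and 0 to 129 in controls, beside the tested ones with values above. Of genes chosen after their values were seen, reads of Amy2a5, Cela3a, Ctrc and Prss2 were 0 to 2 per library in mutants and 0 to 1 in controls, those of Cela3b and Prss1 were 0 to 4 in mutants and 2 to 21 in controls, and the insulin genes Ins1 and Ins2 had 0 to 3 reads in mutants and 0 to 4 in controls. Chosen in the same way, Amy2b had 25, 33, 0 and 4 reads in controls 1 to 4 and 0 in every mutant. Amy2a1 had 7, 13, 0 and 2 reads in controls and 0 in every mutant. Cela2a had 3, 8, 18 and 4 in controls and 2, 0, 0 and 0 in mutants. Ctrl ran the other way, with 9, 15, 6 and 15 reads in mutants and 3, 3, 2 and 7 in controls. Of 8 islet genes 2 were tested and neither was called, Gcg (-1.94, SE 0.85, adjusted p = 0.136) and Pdx1 (1.49, SE 0.86, adjusted p = 0.245), and their summed level was 2.40 to 6.31 CPM in mutants and 3.10 to 3.77 CPM in controls. Without mutant 2, Gcg was called lower (edgeR adjusted p = 0.0395). Of the duodenal list, Sis and Cdx2 had 0 reads in every library, whereas the enterocyte genes Apoa4 (1 to 118 reads in mutants, 634 to 836 in controls), Fabp2 (1 to 97 in mutants, 144 to 213 in controls), Fabp1 (5 to 49 in mutants, 36 to 108 in controls) and Vil1 (2261 to 5982 in mutants, 451 to 696 in controls) were read. Among 11 other genes of lipases or their partners, Lpl (-3.13, SE 0.68, adjusted p = 0.0163), lipoprotein lipase, and Pnpla2 (-0.88, SE 0.19, adjusted p = 0.0154), adipose triglyceride lipase, fell. The 5 others tested were not called, Mgll (-0.81, SE 0.31, adjusted p = 0.0993) among them. Over all genes tested, 10.8% were lower. The count of 2 lower was 3 without mutant 2 and 0 to 3 over all alternatives, with adjusted p of at most 0.0538 for Lpl and 0.401 for Pnpla2. Gastric lipase, Lipf, had 1 read in all 8 libraries.

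Genes of other corpus cell types were read beside the set, and some lists fell, some rose and some were not called. For the counts below, the shares over all genes tested were 10.8% lower and 9.39% higher in mutants. Chief cell genes, Rnase1 and Bhlha15 among them, fell in 4 of 9 tested, with a summed level of 1522 to 42083 CPM in mutants and 298840 to 534409 CPM in controls. That count was 2 without mutant 4, control 1 or control 3, and 6 without mutant 2. Pgc (-4.23, SE 1.06, adjusted p = 0.0268), which lost its call without mutant 1, mutant 4 or any 1 control, and the chitinase gene Chia1 (-5.65, SE 1.32, adjusted p = 0.0209), which lost its call without mutant 4, control 1 or control 3, fell, while Gif, the intrinsic factor gene (-1.90, SE 0.61, adjusted p = 0.0609), was not called. Parietal cell genes fell in 8 of 9 tested (summed level 281 to 2610 CPM in mutants and 15859 to 20129 CPM in controls), smooth muscle genes in 6 of 6 (251 to 710 CPM in mutants and 2555 to 3264 CPM in controls), and genes of mucous neck cells and metaplasia rose in 9 of 9 (14654 to 29013 CPM in mutants and 2445 to 6320 CPM in controls). The parietal count was 5 without mutant 1, mutant 4 or any 1 control, 9 without mutant 2, and 4 without both mutant 3 and control 3. By log2 fold change, Atp4a of the proton pump (-4.17) lost its call without mutant 1, mutant 4 or any 1 control (adjusted p of at most 0.106), Clic6 (-2.81) kept it, and Atp4b (-4.03, adjusted p = 0.0584) was not called. Acta2 (-2.07), Myh11 (-2.86) and Des (-3.40) of smooth muscle fell, and the mucin gene Muc6 (2.62), Dmbt1 (6.40) and the trefoil gene Tff2 (1.57) rose, Tff2 losing its call without mutant 4, control 1, control 3 or control 4 (adjusted p of at most 0.0799). The 5 pit cell genes tested, Muc5ac, Gkn1 and Gkn2 among them, were not called (adjusted p of 0.126 to 0.173), while DESeq2 called 3 of them lower, limma-voom with sample weights 5 and edgeR without mutant 2 5. Of forestomach squamous genes 3 were tested and not called (adjusted p of 0.287 to 0.904). Of 10 duodenal enterocyte genes 4 were tested, Apoa4 (-4.24) fell, Vil1 (1.90) rose and 2, Fabp2 among them, were not called, and 3 were lower without mutant 2. The part of these cell populations in the enzyme genes was not tested.

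The genes whose pattern over the 8 libraries lay nearest to that of Clps, by Euclidean distance of centred log2 CPM among 14637 genes, were Try4 (1.33), Pla2g1b (1.36), Hamp2, a hepcidin gene (1.47), Tmprss9, a transmembrane serine protease gene (1.53), and Chia1 (1.77). Among the set, Pnliprp1 was nearest to Clps at 1.80, followed by Pnliprp2 at 3.12, Cel at 3.62, Try10 at 3.92 and Pnlip at 4.85, and Cela1 was farthest at 11.1. Hamp2 had 30, 0, 89 and 41 reads in mutants and 821, 625, 768 and 935 in controls, and Tmprss9 had 172, 0, 521 and 311 in mutants and 2829, 2598, 2856 and 3081 in controls. Both were lowest in mutant 2, as was Clps, but they were chosen by their distance to Clps over these same libraries. Pgc (819 CPM) and Atp4a (4.42 CPM) were also lowest in mutant 2, so that trait is not particular to these genes.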

How the data were processed

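A raw read count and an FPKM for each gene were deposited by the authors. Per the labels' protocols, corpus tissue went into RNAlater, Trizol was used for RNA and libraries were made with NEBNext Ultra; CASAVA, fastp, STAR 2.5 and featureCounts are named, without roles, in the submitters' processing notes. The sources used here name neither build nor strand setting. Of 54409 genes shared with GENCODE M21 (GRCm38), 53499 had the same start and end, so coordinates are the table's, in GRCm38. Columns were matched by name, and the column headed SCI was read as SC1. Libraries are biological replicates, per the series' design text.

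Genes were kept by filterByExpr, scaled with TMM and fitted in edgeR 4.0.16 under R 4.3.3 by its quasi-likelihood test with the robust option, as mutant over control, Benjamini-Hochberg adjusted over all 15862 genes. Every adjusted p is from that test unless another tool is named. SE is the unshrunk coefficient over the root of F. The code was tested on simulated data. Alternatives were RLE factors, DESeq2 1.42.0, limma-voom with sample quality weights (limma 3.58.1), column totals, 2 other filters, a replicate block, each library left out, mutant 3 and control 3 both left out, and limma on log2(FPKM + 1) or log2(FPKM + 0.1). Floors are 3 reads per library and cover counting error only. Named were the 10 genes, Prkaca and Six2, acinar and islet list genes with a mean of at least 10 reads, the 3 most abundant genes of each other list, and the 5 genes nearest to Clps; other genes were named after their values were seen. The members and lists were chosen with earlier results of these data known. List counts include genes that are not reported here by name.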

Additional observations from a re-analysis of the deposited data

Results flagged for a closer look

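In 20 of 118 groups of 4 libraries, over 59 named genes, the gap between 1 library and the nearest other filled most of the group's range (Dixon's test at the 95% level); chance flags about 5% of groups. Among the enzyme genes, Pnlip stood at 0.343 CPM in mutant 4, against 0 to 0.0431 CPM in the other mutants. Clps stood at 89012 CPM in control 3, against 50211 to 55377 CPM in the other controls. Cpa1 stood at 0.286 CPM in mutant 2 and at 0 in the other mutants, and Ctrb1 at 1.05 CPM in control 2, against 0.314 to 0.359 CPM in the other controls.

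Mutant 2 also stood high for Prkaca (40.7 CPM), Six2 (27.3 CPM, against 1.14 to 3.30 CPM in the other mutants), Gp2 (113 CPM, against 1.57 to 5.09 CPM) and Nr5a2 (5.64 CPM), and low for Sycn, at 0 CPM. Six2 was not called with all 8 libraries (log2 fold change -0.46, SE 0.99, edgeR adjusted p = 0.769) and was lower without mutant 2 (-2.55, adjusted p = 0.00483, against 0.00483 to 0.955 over all alternatives). Control 3 stood high for Pla2g1b (40430 CPM) and Pgc (455036 CPM), and control 2 low for Atp4b (3705 CPM, against 4287 to 4384 CPM). Mutant 3 stood high for Try5 (1.34 CPM) and 2210010C04Rik (0.0431 CPM, a single read). Squamous genes stood high in mutant 3 and control 3, with Krt13 at 228 and 78.1 CPM, Lor at 114 and 84.1 CPM and Krt5 at 163 and 30.9 CPM.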

How the results depend on the processing

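Of the 10 enzyme genes, 6 were lower with all libraries and 4 to 7 over all alternatives, and 1 was higher in each alternative but the one without mutant 3 and control 3, where 0 were higher in edgeR (Cela1 had an adjusted p of 0.0885). Over the same alternatives, 722 to 3066 of all genes tested were called lower and 587 to 9443 higher. None of the 8 tested reversed. The count of all genes called was 3208, and 1717 to 5400 with 1 library left out, 5668 with limma-voom with sample weights, 10165 with column totals, 1824 with the replicate block and 1410 without mutant 3 and control 3. Deviations of same-numbered libraries correlated at -0.0618 to 0.0688, which cannot tell whether a number marks a shared batch. Mutant 3 and control 3 both held squamous transcripts. With the replicate block, 5 enzyme genes were lower. Xbp1, not called at -0.12, reversed to 0.59 with column totals. Without the low-count filter Ctrb1 was lower (log2 fold change -3.45, edgeR adjusted p = 0.0348) and Cpa1 was not called (adjusted p = 0.354). On log2(FPKM + 1) Pnlip changed by -1.89, since the pseudocount is near its level. Depth limits Pnlip and Try10 in mutants, and Ctrb1 and Cpa1 in both groups.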
